A study of Mus musculus with 36 samples.

Results

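A set of 68 genes was lower in mouse pre-B cells with an activated Ikaros transcription factor than in control cells from 2 h on, and stayed lower to the end of a 24 h time course. They were chosen by measured values, out of the 12762 genes of the deposited expression table: the difference between the mean of the Ikaros libraries and the mean of the control libraries at each time. A gene was taken when its mean over the 36 libraries was at least 9.5 on the deposited log2 scale, when the 2 means at 0 h were within 0.4 of each other, and when the difference was -0.8 or lower at each of 2, 6, 12, 18 and 24 h. Taken as base 2, a difference of -0.8 is a 1.74-fold lower level. The choice used the Ikaros minus control differences at all 6 times, so those differences, and the changes of a member's difference from one time to another, are a description and carry no p-value.

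The cells were B3, a mouse line that models a dividing pre-B stage, and messenger RNA was sequenced from 36 libraries, 18 from each of 2 transduced lines. The Ikaros line carried an MSCV retroviral vector with haemagglutinin-tagged Ikaros fused to ERt2, the hormone-binding domain of the estrogen receptor, followed by an IRES and GFP, while the control line carried the same type of vector with ERt2 and no Ikaros. Cultures of both lines received 4-hydroxy-tamoxifen (4-OHT) at 0.5 uM, which moves the fusion protein into the nucleus, and were collected at 2, 6, 12, 18 and 24 h with 3 libraries per line and time. The labels list the drug for the 0 h cultures as well, whereas the methods of the study describe 0 h cells without it, so the 0 h libraries are called here only by their time. The 3 libraries of a group came from separate culture batches (batches 1, 2 and 4 at 0 h, batches 1, 3 and 4 later). The methods also state that the 0 h cells were a separate collection, so any step from 0 h within a line compares cultures collected apart. Each line is a population of transduced cells sorted for GFP, with the fusion protein made from the vector, and both lines keep the cells' own Ikaros gene.

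Ikaros is a zinc-finger protein of lymphocytes that binds DNA at sites with the core GGGAA and can recruit both repressing and activating chromatin complexes. In early B cells the pre-B receptor, a heavy chain paired with a surrogate light chain, together with IL-7 drives division. As cells move on to the small, resting pre-B stage, the surrogate light chain and Myc are known to be switched off, and Ikaros is known to be needed for this step.

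The stretches of 250 bases before the RefSeq start sites (GRCm38.p6) of 4 members are shown because these genes mark the range of time courses described here: Igll1 and Vpreb1, neighbours whose falls deepened, and Lfng and Plekho2, whose differences were deepest early on. Each is written 5′ to 3′ on the gene's own strand, and capitals mark every GGGAA or its reverse complement.
Igll1: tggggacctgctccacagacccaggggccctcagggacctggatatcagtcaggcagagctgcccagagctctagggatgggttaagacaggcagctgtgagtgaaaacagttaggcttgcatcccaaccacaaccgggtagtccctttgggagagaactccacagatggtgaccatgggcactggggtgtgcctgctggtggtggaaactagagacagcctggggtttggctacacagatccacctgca
Vpreb1: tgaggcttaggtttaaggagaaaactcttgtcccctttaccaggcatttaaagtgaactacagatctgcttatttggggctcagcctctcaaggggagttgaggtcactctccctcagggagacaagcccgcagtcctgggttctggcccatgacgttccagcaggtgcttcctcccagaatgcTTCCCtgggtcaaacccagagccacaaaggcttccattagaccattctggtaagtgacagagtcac
Lfng: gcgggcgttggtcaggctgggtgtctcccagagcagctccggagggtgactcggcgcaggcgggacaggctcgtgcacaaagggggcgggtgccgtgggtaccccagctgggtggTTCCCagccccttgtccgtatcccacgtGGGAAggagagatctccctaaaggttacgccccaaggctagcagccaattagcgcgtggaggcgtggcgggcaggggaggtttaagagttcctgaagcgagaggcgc
Plekho2: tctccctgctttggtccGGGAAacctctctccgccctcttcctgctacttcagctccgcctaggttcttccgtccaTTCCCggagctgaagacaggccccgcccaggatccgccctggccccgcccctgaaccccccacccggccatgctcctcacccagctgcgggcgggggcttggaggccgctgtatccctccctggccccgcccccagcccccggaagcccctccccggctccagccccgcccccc
The Igll1 stretch is chr16:16863986-16864235 on the minus strand, and it held no GGGAA. The Vpreb1 stretch is chr16:16869256-16869505 on the minus strand, with 1 core that began 66 bases before the RefSeq start. GENCODE places the start of Vpreb1 farther upstream, so this stretch lies inside its GENCODE span, chr16:16868403-16870843. For Lfng the stretch is chr5:140607091-140607340 on the plus strand, with 2 cores that began 135 and 107 bases before the RefSeq start. Its end lies past the GENCODE start of Lfng, at 140607320. For Plekho2 the stretch is chr9:65580088-65580337 on the minus strand, with 2 cores that began 233 and 174 bases before the start.

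Over whole promoter entries of 250 bases before and 50 after the start, searched on both strands, GGGAA was found for 31 of the 45 members with an entry (68.9%) and for 68.7% of 8586 genes of the table. TGGGAA, which contains GGGAA, was found for 28.9% of these members and 26.0% of table genes. CACGTG, the E box bound by Myc and Max, was found for 13.3% and 11.9%. A palindromic form bound by the B cell factor EBF1, which can overlap the Ikaros core, was in 0 of the 45 members and in 1.26% of table genes. The members' promoters thus held these letters about as often as those of other measured genes.

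Ikzf1, which encodes Ikaros, was the check of the labels. Its values lay between 13.95 and 14.85 in the control libraries and between 19.63 and 20.93 in the Ikaros libraries, so the groups did not overlap at any time, 0 h included. All 10 B lineage markers looked for were in the table, Cd79a among them at a mean of 18.4, while 0 of 6 T cell and 0 of 5 stromal markers, 2 of 6 myeloid, 3 of 6 erythroid and 1 of 4 NK cell markers were. The highest of the non-B markers, Klf1, had a mean of 7.89. The summed level of the 2 myeloid markers (log2 of the sum) was 6.01 to 8.74 in control and 7.82 to 10.03 in Ikaros libraries, so it stood higher in the Ikaros line with some overlap. The erythroid sum was 8.13 to 9.10 and 7.32 to 9.06, the NK cell marker 4.16 to 6.95 and 2.64 to 7.43, and the B lineage sum, which includes Igll1 and Vpreb1, 19.30 to 19.72 and 18.99 to 19.90. The part of these markers in the members' differences was not tested. Library medians lay between 11.70 and 11.73, and the read depth behind the values is unknown because the table holds no counts. These are bulk libraries, in which fewer cells of a type and less RNA per cell cannot be told apart.

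The 68 members differed little between the lines at 0 h, with a median difference of -0.15 and a range of -0.39 to 0.38, as the rule required. In 45 members the 0 h difference was negative. All 3 Ikaros libraries already lay below all 3 control libraries in 7 members, Lfng and Ephb4 among them, and in 2345 of all 12762 genes. At 2 h the members' median difference was -1.17, a 2.25-fold lower level in Ikaros cells. It went on to -1.62 (6 h), -1.86 (12 h), -1.91 (18 h) and -2.11 (24 h), the last a 4.31-fold lower level, while the median of all 12762 genes stayed between -0.02 and -0.002 from 2 h on. The spread among members widened over the same hours. No member (0) was 8-fold lower after 2 h, but 5 were after 6 h, 9 after 12 h, 15 after 18 h and 18 after 24 h. The lowest difference came after 2 h in 4 members, after 6 h in 10, after 12 h in 16, after 18 h in 8 and after 24 h in 30.

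**Figure D1:**
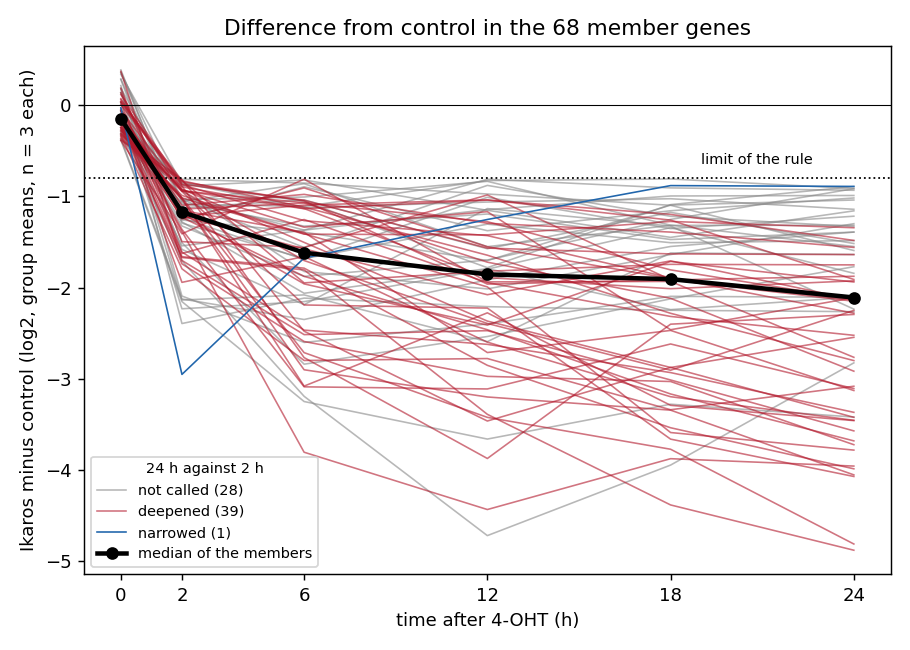
Ikaros minus control difference (log2, vertical axis) against time (h, horizontal axis) for each of the 68 members, with red lines for the 39 whose difference deepened between 2 h and 24 h, grey for the 28 without a call, blue for Plekho2 and black for the median. The median runs from -0.15 at 0 h to -2.11 at 24 h, and the dotted line marks the -0.8 limit that the rule set from 2 h on.

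At 2, 18 and 24 h all 3 Ikaros libraries lay below all 3 control libraries in each of the 68 members, and at 6 h and 12 h they did so in 66 and 67. Of all 12762 genes, 14.5% (2 h), 21.2% (6 h), 25.4% (12 h), 32.4% (18 h) and 36.1% (24 h) showed this. These counts follow from the rule and say nothing more about the members. The 3 exceptions were Nt5dc3 and Lpar5 at 6 h and Rhebl1 at 12 h, and 65 members were apart at all 5 times. Within each of the 15 pairs of batch and time the Ikaros library of the batch was below its control library in all 68 members, and the smallest such difference was -0.12 for ENSMUSG00000097296 in batch 3 at 24 h. In 54 members all 15 later Ikaros libraries were below the lowest of all 18 control libraries. The counts over all 5 times, within batches and against all 18 control libraries also follow largely from the rule. They were not taken over all genes.

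The members nearest to the limit were A430005L14Rik, at -0.81 at 18 h, Lpar5, at -0.81 at 6 h, and Nt5dc3, at -0.81 at 2 h. Just outside it were Sit1, at -0.79 at 24 h, Slc29a2, at -0.79 at 2 h, and Fastkd3, at -0.79 at 6 h. A further 39 genes had the later falls and the small 0 h difference but a mean under 9.5, and 65 had the falls and the mean but a larger 0 h difference. The mirror of the rule, with rises in place of falls, took 29 genes.

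In 65 of the 68 members the step from 0 h to 2 h was larger in the Ikaros line than in the control line. The exceptions were Vpreb1, Nexn and 4933440N22Rik, in which control rose by more than Ikaros went down. From 0 h to 2 h Ikaros cells went down in all 68 members, by a median difference of -1.17 and a range of -2.84 to -0.17, and 58 of them by 0.5 or more. In 6 members the Ikaros libraries of 2 h and 0 h still overlapped, namely Ephb4, Nexn, Slc17a9, Vpreb1, Ydjc and 4933440N22Rik. Control cells over the same step had a median change of -0.005 and a range of -0.63 to 0.58, with 35 of 68 lower. Over all genes the median change was 0.03 in Ikaros cells and -0.002 in control cells. The rule limits the 0 h difference and requires a fall at 2 h. It thus places the Ikaros step below the control step in every member, and these counts are a description. At 24 h against 0 h the members' medians were -2.04 in Ikaros cells and -0.003 in control cells. Over the 5 later times the control group means of a member spanned a median of 0.34.

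**Figure D2:**
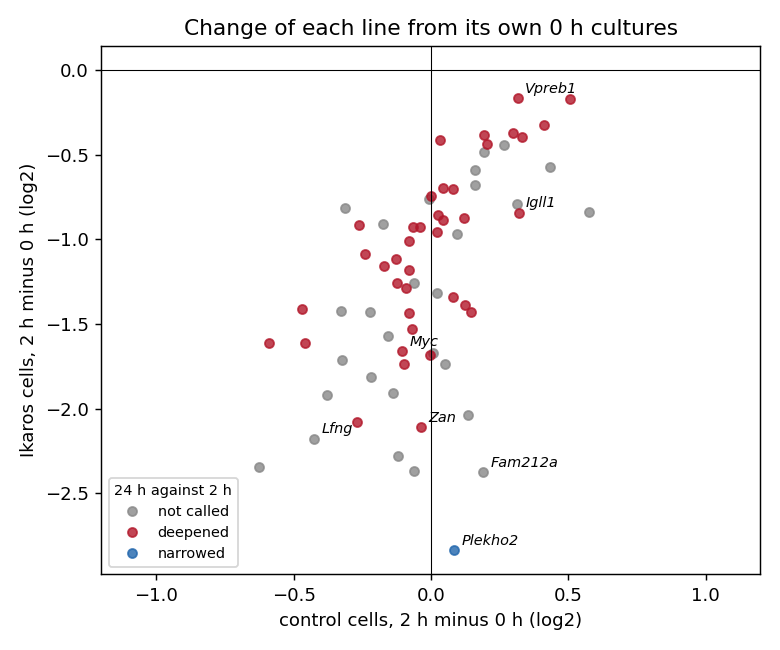
Change from 0 h to 2 h in control cells (log2, horizontal axis) and in Ikaros cells (log2, vertical axis), 1 point per member, group means of 3 libraries, coloured by the call on the difference at 24 h against 2 h. All 68 points lie below 0 on the vertical axis and they spread to both sides of 0 on the horizontal axis, from -0.63 to 0.58.

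Control cells at 24 h against 2 h, a change whose sign the rule does not fix, gave 0 of 68 members a call in limma at an adjusted p under 0.05, against 0.454% of all genes. At an unadjusted p under 0.05 there were 7, against 1541 of all 12762 genes, and 1 was called when the batch was fitted as a replicate block. In Ikaros cells the same step lowered 42 members and raised 4, namely Frmd6, Apold1, Lfng and Plekho2, against 30.4% and 30.2% of all genes. The rule used the Ikaros libraries of both times, so these counts describe the members and are not a test of them. In the line without the fusion protein, which received the same drug, the count of 0 is thus near the share of all genes. It says nothing particular about the members, and a p that misses the threshold does not show that a level stayed the same.

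Members were sorted by whether limma, fitted over all genes, called the difference at 24 h lower or higher than that at 2 h at an adjusted p under 0.05. By this sorting the gap deepened in 39 members and narrowed in 1, with 28 not called. With the batch as a replicate block 40 deepened and 2 narrowed, the added ones being Nt5dc3 and Fam43a. Of all genes 47.3% were called, 24.0% lower and 23.3% higher. The rule bounds both differences at the same value, but 44 of the 68 members lay within 0.5 of that limit at 2 h and only 11 at 24 h, so most had more room to deepen than to narrow, and the calls are only a way of sorting these genes, not a test of them. Leaving out replicate 1, 2 or 3 of every group gave 27 to 38 members that deepened.

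The members that deepened had a median difference of -1.10 at 2 h and -2.76 at 24 h, and the 28 without a call had -1.26 and -1.39, values that the sorting itself used. The largest deepening was in Kdelc1, at -3.79 (SE 0.24). It was followed by Spry1 at -3.21, Slc17a9 at -3.12 and Ephb4 at -3.02. The smallest changes between these times were those of Anks1, at -0.01, and Gna15, at 0.02. Neither course was flat, since the difference of Anks1 moved by -0.51 (SE 0.14) from 2 h to 6 h and that of Gna15 by 0.68 (SE 0.16) from 6 h to 12 h.

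**Figure D3:**
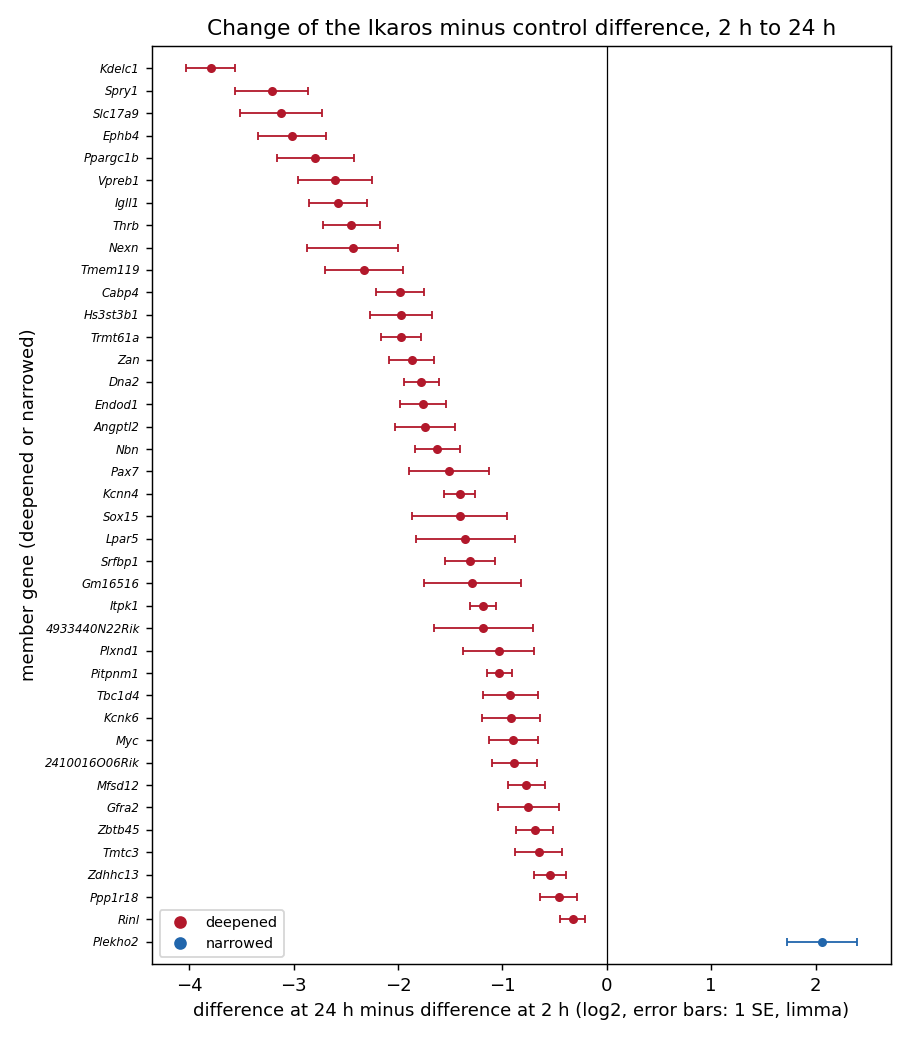
Change of the Ikaros minus control difference from 2 h to 24 h (log2, horizontal axis, error bars 1 SE from limma) for the members sorted as deepened or narrowed, in order of size, with red for the 39 that deepened and blue for the 1 that narrowed. The values run from -3.79 for Kdelc1 to 2.06 for Plekho2, the 1 gene on the positive side.

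Step by step, limma called a change of the gap in 15 members from 2 h to 6 h (14 deeper) and in 14 from 6 h to 12 h (11 deeper). It called 8 from 12 h to 18 h (6 deeper) and 3 from 18 h to 24 h (3 deeper). Of all genes 5.96%, 16.0%, 11.7% and 2.63% were called in these steps, and 3.20%, 7.04%, 6.19% and 1.92% were called lower. The rule used the differences at all these times, so these calls too only sort the members and are not a test of them. The first step was led by Igll1 at -2.42 (SE 0.28), and the second by Spry1 at -1.58 (SE 0.35). Ppargc1b led the third at -1.60 (SE 0.37) and Kdelc1 the last at -1.04 (SE 0.24). These step counts rest on all 3 replicates. Without replicate 1 they were 4, 1, 1 and 0, without replicate 2 they were 2, 3, 0 and 0, and without replicate 3 they were 13, 13, 6 and 0.

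Igll1 and Vpreb1 encode the λ5 and VpreB parts of the surrogate light chain, which pairs with the heavy chain before a true light chain is made. They lie next to each other on the minus strand of chromosome 16 (GRCm38), Igll1 at chr16:16860671-16863985 and Vpreb1 at chr16:16868403-16870843, 4417 bases apart. Igll1 was at 16.82, 16.60 and 16.44 in the control libraries and at 16.43, 16.58 and 16.18 in the Ikaros libraries at 0 h. At 2 h it was at 17.22, 16.61 and 16.99 in control and at 15.32, 15.50 and 15.84 in Ikaros libraries. The groups overlapped at 0 h and were apart at 2 h. At 6 h it was at 17.07, 16.70 and 16.73 in control and 12.88, 13.28 and 12.93 in Ikaros libraries, and at 12 h at 16.65, 16.46 and 16.82 (control) and 12.39, 12.37 and 11.87 (Ikaros). At 18 h the values were 16.58, 16.60 and 16.89 in control and 12.91, 12.73 and 12.81 in Ikaros libraries, and at 24 h 16.63, 16.43 and 16.61 (control) and 12.56, 13.08 and 12.17 (Ikaros). Most of the fall had thus taken place by 6 h, and the 12 later Ikaros libraries from 6 h on had 13.28 as their highest value. The difference was -1.38 at 2 h and -3.96 at 24 h, a 15.5-fold lower level, and the change between them was -2.57 (SE 0.28).

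Vpreb1 had a smaller 2 h difference than its neighbour, -0.82 against -1.38. At 0 h it was at 16.30, 16.05 and 15.74 in control and 15.99, 15.63 and 15.46 in Ikaros libraries, and at 2 h at 16.68, 15.92 and 16.44 (control) and 15.13, 15.56 and 15.89 (Ikaros), where the groups were apart by only 0.03 between the nearest libraries. The Ikaros libraries of these times overlapped each other, and from 0 h to 2 h the Ikaros mean changed by -0.17 and the control mean by 0.32. At 6 h the Ikaros libraries read 13.47, 14.09 and 13.88 against 16.68, 16.07 and 16.12 in control. At 12 h they read 12.74, 12.68 and 12.70 (Ikaros) against 16.19, 15.99 and 16.31 (control), with the control libraries far above. At 18 h the values were 13.16, 12.94 and 13.00 (Ikaros) against 15.81, 15.60 and 16.32 (control), and at 24 h 12.76, 13.22 and 12.15 (Ikaros) against 16.15, 15.86 and 16.39 (control). The change of its difference from 2 h to 24 h was -2.60 (SE 0.36), close to that of Igll1. Exons of Vpreb1 overlap those of Top3b on the other strand, whose difference was -0.34 at 2 h and -0.78 at 24 h. The strand setting of the counting is not given in the sources used here, so reads of overlapping genes cannot be told apart.

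The other genes of the pre-B receptor list, chosen with earlier results of these data known, went in both directions. Already at 0 h limma called 3 of its 8 other genes lower and 2 higher, where 3.72% and 4.61% of all genes were. At 2 h 2 were called lower and 2 higher, and at 24 h 2 lower and 4 higher. Of all genes 9.88% were lower and 9.18% higher at 2 h, and 31.9% and 31.0% at 24 h. The list median was -0.20 (0 h), 0.001 (2 h) and 0.42 (24 h). Vpreb2, a near-identical copy of Vpreb1 that can share its reads, stood at -1.28 (0 h), -1.58 (2 h) and -4.39 (SE 0.29, adjusted p = 5.69e-13) by 24 h. Cd79b, a signalling chain of the receptor, was at 0.15 at 2 h and at 2.29 (SE 0.11, adjusted p = 5.51e-16) at 24 h, and Ighm, the heavy chain, at 0.20 and 1.66 (SE 0.18, adjusted p = 9.2e-09). Of 14 measured genes of receptor signalling, 4 were lower and 1 higher already at 0 h. At 2 h 7 were lower and 1 higher, and at 24 h 6 were lower and 6 higher. The medians were -0.11 (0 h), -0.43 (2 h) and -0.11 (24 h). Blnk, the adaptor downstream of the receptor, was at -0.40 at 2 h and 4.14 (SE 0.19, adjusted p = 4.19e-16) at 24 h.

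Among the 8 transcription factors and cofactors, 7 deepened, where 39 of the 68 members and 24.0% of all genes did. Such groups by role were made after values were seen. Myc, the growth and division factor on chromosome 15, was 3.09-fold lower at 2 h. At 0 h it was at 16.41, 16.38 and 16.64 in control and 16.30, 16.47 and 16.44 in Ikaros libraries, and at 2 h at 16.29, 16.67 and 16.16 (control) and 14.69, 14.90 and 14.64 (Ikaros). Groups that overlapped at 0 h were more than 1 unit apart at 2 h. At 6 h the Ikaros libraries were at 14.76, 14.74 and 14.71 (Ikaros) against 15.67, 16.24 and 16.08 (control), and at 12 h at 14.06, 14.23 and 14.57 (Ikaros) against 16.38, 16.13 and 16.18 (control). At 18 h they were at 13.45, 13.66 and 14.05 (Ikaros) against 16.11, 16.13 and 15.87 (control), and at 24 h at 13.22, 13.83 and 13.41 (Ikaros) against 15.98, 16.09 and 15.96 (control). The difference was -1.63 at 2 h and -2.52 at 24 h, and its change was -0.90 (SE 0.24). Without replicate 1 the change of Myc was -0.76 and was not called.

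Of the 10 other measured genes of the Myc, Max and Mxd network, limma called 1 lower and 2 higher at 2 h, where 9.88% and 9.18% of all genes were, and 2 lower and 6 higher at 24 h, where 31.9% and 31.0% were. At 0 h 1 was called lower and 0 higher, where 3.72% and 4.61% of all genes were. Mxd4, a partner of Max that opposes Myc, stood at 0.42 (0 h), 0.81 (2 h) and 4.23 (SE 0.23, adjusted p = 1.35e-14) by 24 h. Mycn, the close relative of Myc, was beyond the 0 h limit of the rule, at -4.63 at 0 h, and it was at -3.54 at 24 h.

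Several other factors of the set are known mostly from other tissues. Pax7, the paired-box factor of muscle stem cells, went from -1.94 at 2 h to -3.45 at 24 h, and Thrb, a thyroid hormone receptor, from -1.23 to -3.68. Ppargc1b, a coactivator of mitochondrial genes, went from -0.99 to -3.78, and most of that came between 12 h and 18 h. Sox15 was lowest at 12 h, at -3.87, and was back at -2.29 at 24 h. Its 3 Ikaros libraries at 12 h spread from 7.98 to 10.28, however, against 11.07 to 11.49 at 24 h.

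Of 6 enzymes of DNA repair, RNA and chromatin, 5 deepened, against 24.0% of all genes, and Slx1b, at -1.07 at 2 h and -1.39 at 24 h, was not called. Nbn, part of the complex that senses double-strand breaks, went from -0.92 to -2.55. Dna2, a nuclease and helicase of end resection and replication, went from -1.14 to -2.92. Trmt61a, the catalytic subunit of a tRNA methyltransferase, went from -0.83 to -2.80.

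The 11 signalling regulators inside the cell held both the deepest difference at 24 h and Plekho2, whose gap narrowed. Spry1, an inhibitor of receptor tyrosine kinase and ERK signalling on chromosome 3, was at 11.95, 11.80 and 12.32 in control and 11.61, 11.73 and 11.98 in Ikaros libraries at 0 h. At 2 h it was at 12.39, 12.30 and 11.63 (control) and 10.51, 10.59 and 10.21 (Ikaros), with no overlap. It went on down at each later time in Ikaros cells, to 10.31, 10.31 and 9.65 at 6 h, with 11.99, 12.02 and 11.69 in control, and to 8.67, 8.98 and 8.52 at 12 h, with 12.23, 12.23 and 11.87 in control. At 18 h it was at 7.12, 8.06 and 7.92 (Ikaros) against 12.20, 12.21 and 11.83 (control), and at 24 h at 7.02, 7.94 and 7.25 (Ikaros) against 12.10, 12.39 and 12.37 (control). The Ikaros level at 24 h was 29.4-fold lower, and the change of the difference since 2 h was -3.21 (SE 0.35).

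Plekho2, a pleckstrin homology domain protein on chromosome 9, took the opposite course. At 0 h it was at 14.50, 14.33 and 14.70 in control and 14.52, 14.37 and 14.54 in Ikaros libraries, and at 2 h at 14.75, 14.90 and 14.13 (control) and 11.79, 11.89 and 11.24 (Ikaros), the largest 2 h difference of the 68 members at -2.95. The Ikaros level then came back part of the way. At 6 h it was at 12.90, 12.41 and 12.26 (Ikaros) against 14.57, 14.34 and 13.68 (control), and at 12 h at 13.04, 13.33 and 12.71 (Ikaros) against 14.57, 14.35 and 13.93 (control). At 18 h it was at 13.42, 13.34 and 13.24 (Ikaros) against 14.51, 14.36 and 13.77 (control), and at 24 h at 13.47, 13.24 and 13.21 (Ikaros) against 14.31, 14.27 and 14.01 (control). The groups never overlapped after 0 h, although they were 0.35 apart at the nearest libraries at 18 h. The difference narrowed by 2.06 (SE 0.34), and by 2.03 to 2.10 when a replicate was left out. Every alternative fit also sorted Plekho2 as narrowed. The rule used both differences, so this describes the gene and is not a test of it.

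Sh2d5, an adaptor with an SH2 domain, had its lowest point at 12 h. Its Ikaros libraries were at 9.36, 9.28 and 9.63 at 2 h and 8.10, 8.38 and 7.96 at 24 h, against 11.05, 10.90 and 11.44 at 2 h in control and 10.92, 10.76 and 11.24 at 24 h. At 12 h the difference was -4.72, but its 3 Ikaros libraries then spread from 5.09 to 7.13. The change from 2 h to 24 h, -1.12 (SE 0.50), was not called. Its exons overlap those of Kif17 on the same strand, which was at -0.07 at 2 h and -1.06 at 24 h.

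Of the other regulators, Fam212a, an inhibitor of a p21-activated kinase, stayed nearly level, at -2.39 at 2 h and -2.26 at 24 h. Anks1, an adaptor of Eph receptors, was at -2.09 and -2.11. Itpk1 and Pitpnm1, which act on inositol phosphates and phosphatidylinositol, deepened from -0.94 to -2.13 and from -0.90 to -1.93. Of this group 5 deepened, 1 narrowed and 5 were not called, against 24.0% and 23.3% of all genes called lower and higher.

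The ERK feedback and immediate early genes, the list that holds Spry1, had 17 other genes in the table. Already at 0 h 3 were called lower and 3 higher, where 3.72% and 4.61% of all genes were. Limma called 7 lower and 1 higher at 2 h, where 9.88% and 9.18% of all genes were, and 2 lower and 2 higher at 6 h, where 19.2% and 18.1% were. At 24 h 11 were lower and 2 higher, where 31.9% and 31.0% of all genes were. The medians were -0.65 (2 h), -0.24 (6 h) and -1.17 (24 h), with as many called lower as higher at 6 h. Ier3, an immediate early gene, stood at -0.47 (0 h), -2.05 (2 h) and -3.02 (SE 0.25, adjusted p = 3.91e-11) by 24 h, and Dusp6, a phosphatase of ERK, at -0.50, -1.33 and -1.17 (SE 0.23, adjusted p = 8.92e-05). Etv4, an ETS factor induced by ERK, was at -0.05 at 2 h and -4.26 (SE 0.22, adjusted p = 5.24e-15) at 24 h. Dusp5 went the other way, at 0.85 at 2 h and 1.69 (SE 0.16, adjusted p = 1.12e-09) at 24 h.

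**Figure D4:**
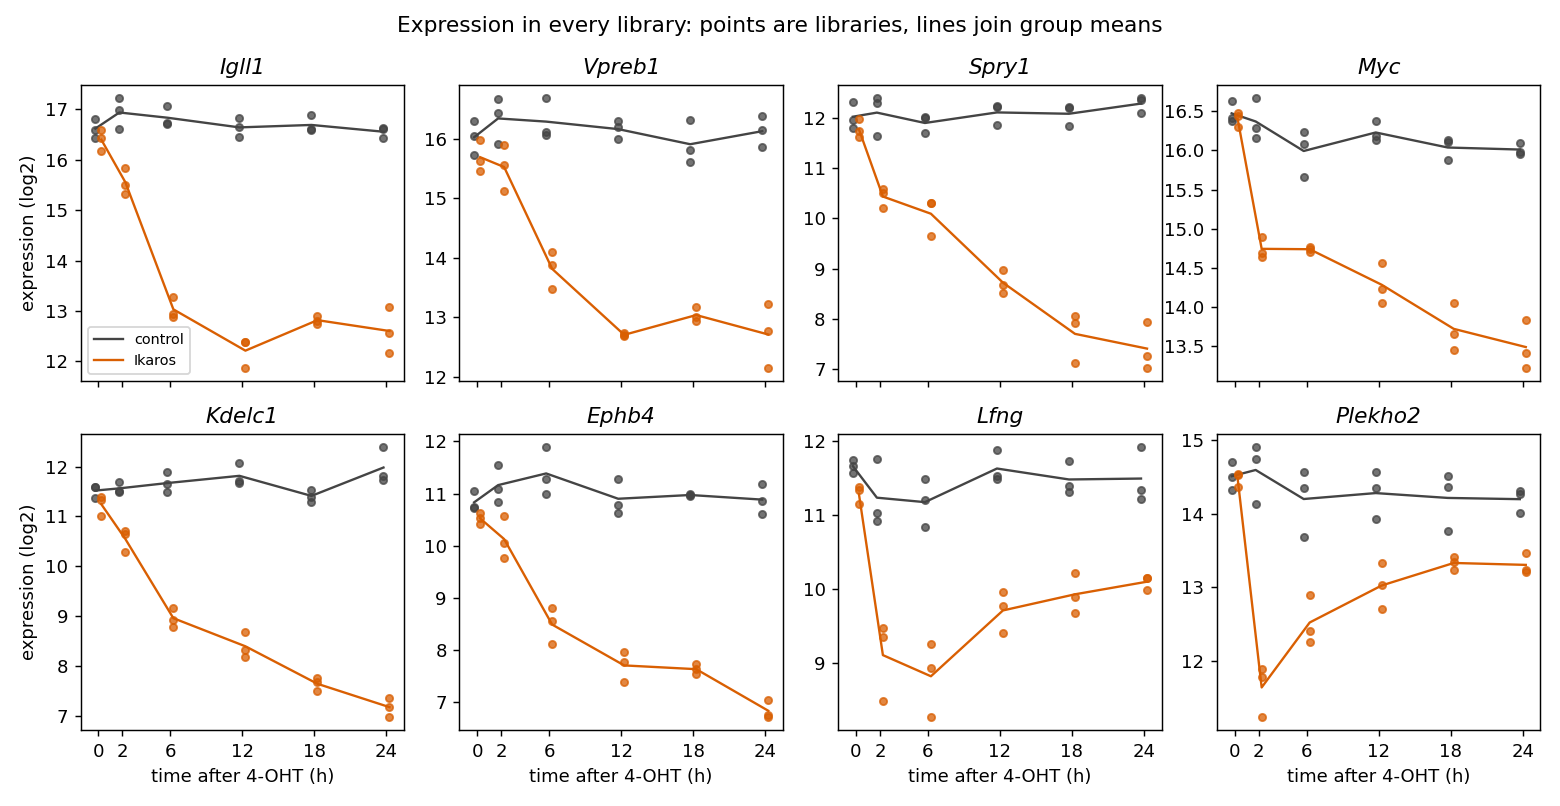
Expression (log2, vertical axes, scaled per gene) against time (h, horizontal axes) of 8 members in every library, grey for control and orange for Ikaros cells, with lines through the group means of 3 libraries. In Ikaros cells Igll1 and Vpreb1 reach a low level by 12 h, Spry1, Myc, Kdelc1 and Ephb4 are lowest at 24 h, and Lfng and Plekho2 come back part of the way.

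Of 11 receptors, ligands and their modifying enzymes, 7 deepened and 4 were not called, a share near that of 39 in 68 for the whole set, against 24.0% of all genes. Kdelc1, an enzyme that puts sugars on the EGF repeats of Notch, lies on chromosome 1 and was at 11.38, 11.59 and 11.59 in control and 11.34, 11.00 and 11.40 in Ikaros libraries at 0 h. At 2 h it was at 11.49, 11.51 and 11.69 (control) and 10.29, 10.70 and 10.65 (Ikaros), and at 6 h at 11.64, 11.48 and 11.88 (control) and 8.79, 8.93 and 9.15 (Ikaros). The groups were apart from 2 h on, and the gap grew at each time. At 12 h the Ikaros libraries were at 8.31, 8.18 and 8.68 (Ikaros) against 11.68, 11.70 and 12.07 (control), and at 18 h at 7.76, 7.49 and 7.67 (Ikaros) against 11.40, 11.30 and 11.54 (control). At 24 h they were at 6.98, 7.36 and 7.17 (Ikaros) against 11.82, 11.74 and 12.39 (control), a 28.1-fold lower level.

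Lfng, lunatic fringe, also modifies the EGF repeats of Notch. At 0 h it was at 11.75, 11.57 and 11.66 in control and 11.38, 11.33 and 11.14 in Ikaros libraries, and at 2 h at 11.02, 11.76 and 10.92 (control) and 9.36, 9.47 and 8.49 (Ikaros). The 2 h difference of -2.12 was 1 of the deeper ones. At 6 h it was at 10.84, 11.48 and 11.20 (control) and 9.25, 8.94 and 8.28 (Ikaros), and at 12 h at 11.52, 11.87 and 11.48 (control) and 9.41, 9.77 and 9.96 (Ikaros). At 18 h it was at 11.39, 11.73 and 11.31 (control) and 9.89, 9.68 and 10.21 (Ikaros), and at 24 h at 11.34, 11.91 and 11.22 (control) and 9.99, 10.15 and 10.15 (Ikaros). The change of the difference, 0.73 (SE 0.37), was not called.

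Ephb4, a receptor tyrosine kinase of the Eph family, was at 10.74, 11.04 and 10.71 in control and 10.41, 10.53 and 10.63 in Ikaros libraries at 0 h and at 11.08, 10.85 and 11.56 (control) and 9.76, 10.04 and 10.57 (Ikaros) at 2 h. At 6 h it was at 11.00, 11.28 and 11.89 (control) and 8.11, 8.55 and 8.79 (Ikaros), and at 12 h at 10.79, 10.63 and 11.29 (control) and 7.76, 7.38 and 7.96 (Ikaros). The libraries were close at 2 h and far apart from 6 h on. At 18 h it was at 10.95, 10.97 and 11.00 (control) and 7.73, 7.63 and 7.54 (Ikaros), and at 24 h at 10.86, 10.61 and 11.18 (control) and 6.74, 6.72 and 7.04 (Ikaros), and the change of the difference was -3.02 (SE 0.33). The gene ends on chromosome 5 where Zan, a sperm zonadhesin gene on the other strand and also a member, ends too, and the pair overlap by 33 bases. Zan was at 11.13, 10.99 and 11.11 in control and 9.10, 9.51 and 9.53 in Ikaros libraries at 2 h and at 11.30, 10.95 and 11.08 (control) and 7.25, 7.78 and 7.58 (Ikaros) at 24 h, with all 18 control libraries between 10.84 and 11.53. Its change was -1.87 (SE 0.22), and whether the genes share reads cannot be told apart here.

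Angptl2, a secreted angiopoietin-like protein, had all 18 control libraries between 12.20 and 13.29. Its Ikaros libraries were at 11.67, 11.66 and 11.22 at 2 h and 9.89, 9.52 and 9.5 at 24 h, against 13.16, 12.94 and 12.55 at 2 h in control and 12.97, 12.64 and 12.61 at 24 h. It fell mostly between 2 h and 6 h, and the change to 24 h was -1.74 (SE 0.29). Osm, a cytokine of the IL-6 family induced by STAT5, was at 9.65, 9.59 and 8.99 at 2 h and 8.97, 9.29 and 8.82 at 24 h in Ikaros libraries, against 10.28, 10.61 and 10.16 at 2 h in control and 10.12, 10.43 and 10.43 at 24 h. Its difference was deepest at 12 h, at -2.01, and the change from 2 h to 24 h, -0.36 (SE 0.38), was not called.

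Of the 16 others on the IL-7 receptor and STAT5 list, limma called 5 lower and 1 higher already at 0 h, where 3.72% and 4.61% of all genes were. At 2 h 6 were lower and 2 higher (9.88% and 9.18% of all genes), and at 24 h 7 were lower and 5 higher (31.9% and 31.0%). The list median was -0.45 (0 h), -0.42 (2 h) and 0.28 (24 h), so it hardly moved in the first step. Cish, a target of STAT5, stood at -2.05 (0 h), -2.21 (2 h) and -1.23 (SE 0.38, adjusted p = 0.00607) by 24 h. Pim1, a kinase gene induced by STAT5, stood at -1.62 (0 h), -1.99 (2 h) and 0.38 (24 h), where it was no longer called. Both were already lower in the Ikaros line at 0 h.

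Among the remaining receptors and ligands, Plxnd1, a semaphorin receptor, went from -0.84 at 2 h to -1.88 at 24 h, and Lpar5, a receptor for lysophosphatidic acid, from -1.41 to -2.76. Gfra2, a co-receptor for neurturin, went from -1.19 to -1.94, and Hs3st3b1, a heparan sulfate sulfotransferase, from -1.16 to -3.13. Tnfsf9, the ligand of 4-1BB, was at -1.58 and -2.24, and Gpr56, an adhesion receptor, at -0.86 and -0.89, neither called. The early B surface list, which holds no member (0), had 6 of 14 lower and 1 higher at 2 h (9.88% and 9.18% of all genes), and 4 lower and 6 higher at 24 h (31.9% and 31.0%). In the cyclic nucleotide and G protein list, also without a member, 5 of 23 measured entries were lower and 7 higher at 2 h, and 4 lower and 11 higher at 24 h, beside the same shares of all genes. At 0 h limma called 1 lower and 1 higher in the early B list, and 3 lower and 3 higher in the other. Of all genes 3.72% were called lower and 4.61% higher at 0 h.

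Of 6 channels and transporters, 4 deepened, against 24.0% of all genes and 39 of the 68 members. Slc17a9, which loads nucleotides into vesicles, was at 13.98, 14.16 and 14.66 in control and 12.88, 13.35 and 13.73 in Ikaros libraries at 2 h. At 24 h it was at 14.15, 14.26 and 14.92 (control) and 10.00, 11.07 and 10.05 (Ikaros). The groups were apart by 0.25 at the nearest libraries at 2 h, and the change of the difference was -3.12 (SE 0.39). Kcnn4, a potassium channel opened by calcium, went from -0.87 at 2 h to -2.28 at 24 h, and Kcnk6, another potassium channel, from -1.22 to -2.13. Cacna1b, a calcium channel subunit, was deepest at 6 h, at -2.84, and was at -1.77 at 24 h.

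The 8 genes of cytoskeleton, adhesion and membrane shape had medians of -1.08 (2 h) and -1.24 (24 h). Nexn, an actin-binding protein, and Ppp1r18, an actin-linked phosphatase subunit, deepened, and the other 6 were not called, against 24.0% of all genes that were called lower. Nexn was at 11.31, 11.23 and 11.85 in control and 10.06, 10.28 and 10.98 in Ikaros libraries at 2 h, and at 11.00, 11.10 and 11.12 (control) and 7.57, 7.96 and 7.31 (Ikaros) at 24 h. From 0 h to 2 h its Ikaros mean changed by -0.32 and its control mean by 0.41. Its 18 control libraries ranged from 10.80 to 11.87, a span of more than 1 unit, and the change was -2.43 (SE 0.44). Tns3, a focal adhesion protein, was at -1.13 and -1.52, and Frmd6, a FERM domain protein, at -1.26 and -1.04.

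GENCODE (release M21) lists 63 members as protein coding, 3 as lincRNA, 1 as antisense and 1 as an unconfirmed transcript. The lincRNA 8430423G03Rik was at 11.66, 11.62 and 10.99 in control and 9.85, 9.45 and 8.51 in Ikaros libraries at 2 h, and at 11.14, 11.28 and 10.41 (control) and 7.20, 7.05 and 8.33 (Ikaros) at 24 h. Its change of -1.27 (SE 0.64) was not called, but it was -2.09 without replicate 3 and was then called. The antisense gene Gm16516 was at 10.78, 10.82 and 10.45 in control and 8.59, 8.78 and 9.29 in Ikaros libraries at 2 h, and at 10.39, 10.82 and 10.55 (control) and 7.57, 7.24 and 7.71 (Ikaros) at 24 h. Its change of -1.29 (SE 0.47) lost the call without replicate 1, at -1.61, and without replicate 2, at -1.16.

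The other 11 proteins, of which 5 deepened against 24.0% of all genes, include genes best known from other cell types. Cabp4, a calcium-binding protein of photoreceptor synapses, was at 13.19, 13.29 and 13.61 in control and 11.64, 11.52 and 11.71 in Ikaros libraries at 2 h and at 13.47, 13.55 and 13.91 (control) and 9.74, 9.98 and 10.04 (Ikaros) at 24 h. Its change was -1.98 (SE 0.23), and Pitpnm1, described above, is its neighbour on chromosome 19. Tmem119, a membrane protein known as a marker of microglia, was at 16.09, 15.83 and 15.33 in control and 14.38, 14.32 and 13.57 in Ikaros libraries at 2 h. At 24 h it was at 15.40, 15.47 and 15.34 (control) and 11.44, 12.01 and 10.79 (Ikaros), and its change was -2.32 (SE 0.37). Apold1, an early response gene of endothelium, was at 10.56, 10.40 and 9.63 (control) and 9.03, 9.11 and 7.83 (Ikaros) at 2 h and at 10.80, 10.62 and 10.05 (control) and 9.82, 9.72 and 8.95 (Ikaros) at 24 h, and its change of 0.55 (SE 0.51) was not called. Tmtc3, Zdhhc13, Fam43a, Ydjc, Rdh13, Nt5dc3 and A430005L14Rik lay between -2.15 and -0.91 at 24 h.

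The members were spread over 19 chromosomes, with the most on chromosome 7 (8) and chromosome 11 (7). Besides Igll1 with Vpreb1 and Ephb4 with Zan, the close pairs were Pitpnm1 with Cabp4, 21457 bases apart, and Mfsd12 with Gna15, 136080 bases apart. Exons of 23 members overlap those of another gene, 9 of them on the same strand, and 16 of the 28 overlapping partners were in the table. Gene spans had a median of 16.6 kb for the members and 19.2 kb for the 12592 table genes found in the annotation. In mean level over the 18 control libraries, where the falls play no part, the members lay between 10.26 and 16.71 with a median of 12.09, against a median of 12.56 for the 8389 genes within the same mean and 0 h limits.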

How the data were processed

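The deposited values are gene expression on a log2 scale. The authors aligned stranded paired-end reads to mm10 with TopHat2, assigned them to genes by HTSeq, corrected the counts for GC content and length by cqn, and removed library preparation effects with ComBat. Tool versions and the strand setting of the counting are not given in the sources used here. A constant shift puts the table's lowest value at 1, so a level is relative, while differences are not affected, and folds rest on base 2. No counts were used, so depth is unknown. Adjustment before deposition removes variation that a later fit cannot see.

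Groups, times and batches came from the sample labels. The 12 group means were fitted together to all 36 libraries and 12762 genes in limma 3.58.1 (R 4.3.3). P-values were two-sided with Benjamini-Hochberg adjustment over all genes, and calls needed an adjusted p under 0.05. For the members' differences, which the rule used, calls serve only to sort genes. The script was tested on simulated data. Members and lists were chosen with earlier results of these data known, and roles were assigned after values were seen.

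Library values are given for 19 members: the 12 with the most negative mean difference over 2 to 24 h, those in a listed gene group, and the 3 with the most negative and the 3 with the most positive change from 2 h to 24 h. Of these, 8 are given at all times and the others at 2 h and 24 h. Control and Ikaros cultures share batch numbers, which pair the libraries: over 18 pairs the correlation of paired deviations was -0.0620 to 0.507, with a median of 0.127 and 12 above 0.1. Alternatives were the batch as a replicate block, a filter at the 25th percentile of mean level that kept 9571 genes, quantile normalization, eBayes with trend and robust settings, fits without the 0 h libraries or each replicate, and other limits of the rule. Positions came from GENCODE M21 (GRCm38) and promoters from RefSeq (GRCm38.p6), matched by name and position for 45 members.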

Additional observations from a re-analysis of the deposited data

Results flagged for a closer look

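By the limma call at an adjusted p under 0.05, the Ikaros minus control difference deepened from 2 h to 24 h in 39 members and narrowed in 1. Both differences also served to choose the members, so these counts are a description and no p-value is given. Among the named members the change of the difference from 2 h to 24 h was -3.79 for Kdelc1, -3.21 for Spry1, -3.12 for Slc17a9, -3.02 for Ephb4, -2.60 for Vpreb1 and -2.57 for Igll1. It was -2.43 for Nexn, -2.32 for Tmem119, -1.98 for Cabp4, -1.87 for Zan, -1.74 for Angptl2, -1.29 for Gm16516 and -0.90 for Myc. Plekho2, at 2.06, was the member that narrowed.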

How the results depend on the processing

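The number of genes the rule took depended most on its own limits: 107 with no minimum mean, 35 with a limit of -1 and 133 with no limit at 0 h. Quantile normalization took 69, of which 67 were members, and leaving out a replicate number took 62 to 68, of which 49 to 55 were members. The median difference at 24 h was -2.14 to -1.99 when a replicate was left out. With the batch as a replicate block, 40 members deepened and 2 narrowed, control cells had 1 call at 24 h against 2 h, and all 40 earlier calls were kept, as they were with the filter on low values, quantile normalization and trend and robust settings. Without the 0 h libraries 37 of the 40 calls were kept, and the steps from 6 h to 12 h and from 12 h to 18 h called 9 and 5 members. Without a replicate 28 to 38 of the 40 were kept, and the counts of calls per step were 2 to 13, 1 to 13, 0 to 6 and 0 to 0. Among the named members Gm16516 and Myc lost a call and 8430423G03Rik gained one, as given in the text, and no value changed direction. Depth is unknown, and 3 libraries per group limit what small changes can be called.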
